A study of Mus musculus with 6 samples.

Results

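The receptors and ligands of the VEGF and Tie systems were examined in endothelial cells isolated from mouse brain. The set was fixed by gene symbol and holds 9 genes, Kdr, Flt1, Flt4, Pgf, Tek, Tie1, Ptprb, Angpt1 and Angpt2, of the 23329 symbols in the count files. All 9 passed the filter on low counts, as did 14838 genes in all. The cells came from adult C57BL/6 mice aged 8 weeks, were captured with magnetic beads (MACS) and were never cultured. One group carries a Glut1 (Slc2a1) knockout confined by design to endothelial cells and is labelled GLUT1EC-/- (3 libraries), and the other holds WT littermates (3 libraries). The labels do not name the Cre driver, the deleted exons or the age at deletion, and no treatment is given for either group. All values are for bulk RNA of bead-captured cells, in which fewer cells of a type and less RNA per cell cannot be told apart.

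VEGF ligands act on endothelial cells through receptor tyrosine kinases. Kdr encodes VEGFR2, the main signalling receptor, Flt1 encodes VEGFR1, which binds ligand tightly but signals weakly and also exists as a secreted decoy, and Flt4 encodes VEGFR3, known for lymphatic and sprouting endothelium. Pgf encodes placental growth factor, a ligand of VEGFR1. Tek encodes Tie2, the receptor of the angiopoietins, and Tie1 is its partner. Angpt1, made mainly by mural and other perivascular cells, activates Tie2 and stabilises vessels. Angpt2, made by endothelial cells, opposes it in many settings. Ptprb encodes VE-PTP, an endothelial phosphatase that restrains Tie2 and VEGFR2.

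The 9 genes lie on 7 chromosomes and none shares exon positions on its own strand with another annotated gene (GENCODE M21, GRCm38). Flt1 (147561604 to 147726011) and Kdr (75932827 to 75978458) are both on the minus strand of chromosome 5. Tek (94739289 to 94874976, plus strand) and Tie1 (118471191 to 118490061, minus strand) are both on chromosome 4. Flt4 lies on chromosome 11 (49609263 to 49652739, plus strand), Ptprb on chromosome 10 (116275523 to 116389535, plus strand) and Pgf on chromosome 12 (85166635 to 85177790, minus strand). Angpt2 lies on the minus strand of chromosome 8 (18690263 to 18741562) and Angpt1 on that of chromosome 15 (42424723 to 42676977). Angpt1 has 1 annotated partner on the opposite strand, Gm17473, so its count is uncertain where strand was not used. RefSeq promoter windows on GRCm38.p6 were matched for 6 of the 9 genes, Flt1, Flt4, Kdr, Pgf, Tek and Tie1. The 250 bases before the RefSeq start are shown for the receptor genes Flt1 and Tek, whose levels did not overlap between the groups, and for Kdr, whose levels did. Flt4, also a receptor gene without overlap, is not shown. Capitals mark GGAAG or its complement CTTCC, a core of the sites of ETS factors, which act at many endothelial genes. The windows are chr5:147726012-147726261 on the minus strand for Flt1, chr4:94739039-94739288 on the plus strand for Tek and chr5:75978456-75978705 on the minus strand for Kdr.
Flt1: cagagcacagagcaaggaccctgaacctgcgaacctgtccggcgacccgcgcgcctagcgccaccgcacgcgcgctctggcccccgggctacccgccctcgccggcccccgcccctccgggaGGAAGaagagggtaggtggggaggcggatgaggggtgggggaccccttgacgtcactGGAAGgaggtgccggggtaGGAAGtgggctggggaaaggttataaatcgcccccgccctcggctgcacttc
Tek: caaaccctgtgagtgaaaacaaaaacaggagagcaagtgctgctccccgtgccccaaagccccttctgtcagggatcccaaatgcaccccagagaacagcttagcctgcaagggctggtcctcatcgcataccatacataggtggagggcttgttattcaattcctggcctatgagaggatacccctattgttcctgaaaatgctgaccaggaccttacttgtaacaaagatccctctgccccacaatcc
Kdr: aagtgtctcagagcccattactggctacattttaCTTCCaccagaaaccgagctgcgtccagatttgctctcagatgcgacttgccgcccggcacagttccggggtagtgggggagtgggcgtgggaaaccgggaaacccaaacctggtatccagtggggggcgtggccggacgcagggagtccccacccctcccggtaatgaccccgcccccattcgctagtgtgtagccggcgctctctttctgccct
The Flt1 window held 3 matches, the Kdr window 1, the Tek window 0 and the Flt4 window 1. The Flt4 and Pgf windows lie wholly within annotated exons of the same gene, as do 212 of the 250 bases of the Tie1 window. On either strand, 4 of the 6 genes with a window had a match, against 64.1% of all 32851 windows of this length. The forkhead motif GTAAACA was in the window of 0 of the 6 genes (3.17% of all windows) and the E-box CACGTG in 0 of the 6 (6.02% of all windows). These letters describe the windows and say nothing about binding.

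Total counts were 35323299 to 37868681 in the libraries labelled GLUT1EC-/- and 31874662 to 39424384 in WT. Slc2a1, the targeted gene, was at 3735, 5414 and 3893 CPM (counts scaled to a common library size, with TMM factors) in the libraries labelled GLUT1EC-/- 1 to 3, against 3984, 4479 and 4172 CPM in WT 1 to 3. Its log2 fold change was 0.05 (SE 0.18, adjusted p = 0.921 by edgeR), so the count does not separate the groups and GLUT1EC-/- is used throughout as a label. Without GLUT1EC-/- 2 it was -0.15, and an annotated gene on the opposite strand (Gm12868) overlaps Slc2a1 exons. GLUT1EC-/- 2 stood apart with a TMM factor of 0.884, against 1.01 to 1.05 in the other libraries. All 14 endothelial reference genes were well detected in every library, such as Cldn5, a tight junction gene, at 1711 to 2005 CPM in GLUT1EC-/- and 1624 to 2287 CPM in WT. Their summed level was 10916 to 14188 CPM in GLUT1EC-/- libraries and 10474 to 11826 CPM in WT libraries.

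None of the 9 receptor and ligand genes passed the test over all genes (quasi-likelihood F test in edgeR, adjusted p by Benjamini-Hochberg under 0.05), with adjusted p-values of 0.118 to 0.976. Over all genes tested, 194 passed, 1.31% of them, with 0.863% higher and 0.445% lower in GLUT1EC-/-. At an unadjusted p under 0.05 stood 3 of the 9, Flt1, Flt4 and Angpt2, against 14.5% of all genes. Limma-voom called 0 of the 9, where it called 0.997% of all genes, and DESeq2 called 2, Angpt2 and Flt4, where it called 5.92%. The 3 libraries of each group did not overlap for 4 of the 9 genes: Angpt2 and Flt4 were higher in GLUT1EC-/-, as were 11.7% of all genes tested, and Flt1 and Tek were lower, as were 11.2%. The median log2 fold change of the 9 was -0.02, against 0.01 over all genes tested. With so few genes, these shares describe the set and were not tested.

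**Figure D1:**
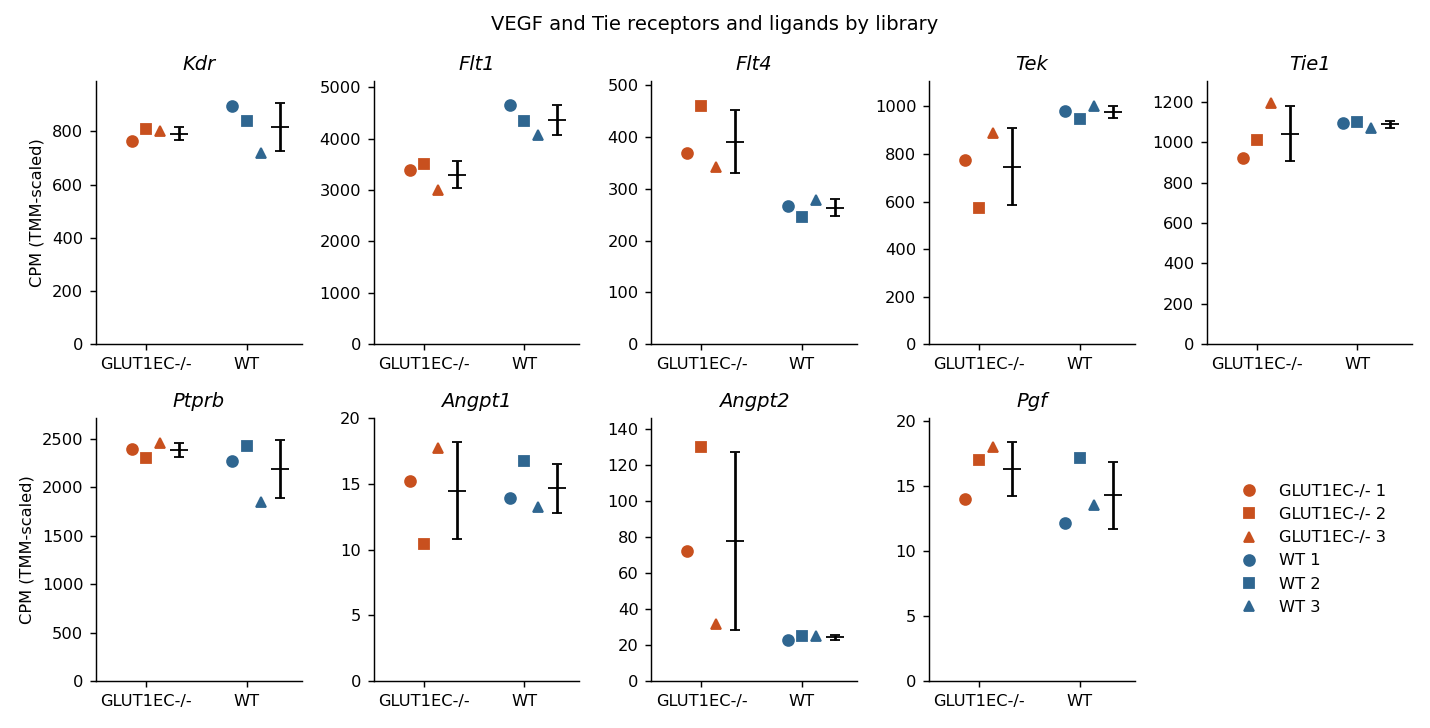
CPM (TMM-scaled, linear axes from 0) of the 9 genes in each of the 3 GLUT1EC-/- and 3 WT libraries, with symbols for libraries 1 to 3 and black bars for mean ± SD. The groups do not overlap for Flt1, Flt4, Tek and Angpt2, and GLUT1EC-/- libraries spread most, relative to their mean, for Angpt2, between 31.6 and 130.1 CPM.

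Among the VEGF receptors, Flt1 had the highest count. Flt1 was at 3392, 3516 and 2998 CPM in GLUT1EC-/- 1 to 3, against 4660, 4339 and 4076 CPM in WT 1 to 3. Every GLUT1EC-/- library was below every WT library. The means were 3302 ± 270.4 CPM in GLUT1EC-/- and 4358 ± 292 CPM in WT (SD, n = 3 each), a log2 fold change of -0.40 (SE 0.14, adjusted p = 0.237 by edgeR). The corresponding fold was 0.758 with a 95% interval of 0.608 to 0.945, which like the other intervals is not adjusted for the number of genes tested. The log2 difference was -0.41 between libraries whose title numbers are in the 200s (1 GLUT1EC-/-, 2 WT) and -0.33 in the 500s (2 GLUT1EC-/-, 1 WT). The files give 1 count per gene, so the membrane and secreted forms are counted together.

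Kdr, the main VEGF signalling receptor, differed by less than the spread between libraries. It was at 763, 809 and 803 CPM in GLUT1EC-/- 1 to 3 and at 894, 838 and 719 CPM in WT 1 to 3. The WT values enclosed all GLUT1EC-/- values. The log2 fold change was -0.05 (SE 0.14, adjusted p = 0.897 by edgeR), with a 95% interval on the log2 scale of -0.36 to 0.27. Within the 200s the log2 difference was -0.18, and within the 500s it was 0.17.

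Flt4, the receptor of VEGF-C, was at 370.1, 460.1 and 343 CPM in GLUT1EC-/- 1 to 3, against 267, 246 and 278 CPM in WT 1 to 3. Every GLUT1EC-/- library exceeded every WT library. The means were 391 ± 61.2 CPM in GLUT1EC-/- and 264 ± 16.2 CPM in WT, a log2 fold change of 0.57 (SE 0.15, adjusted p = 0.134 by edgeR), or a fold of 1.48 (95% interval 1.17 to 1.88). DESeq2 gave Flt4 an adjusted p of 0.0189, and the adjusted p ranged from 0.0189 to 0.482 over all alternatives. Within the 200s the groups differed by 0.53 (log2), and within the 500s by 0.51. By Xist and Ddx3y, GLUT1EC-/- 3 and WT 3 were from males, and the Flt4 difference was 0.69 among the 4 female libraries and 0.30 between the males. Flt4 is also a gene of lymphatic endothelium, whose defining transcription factor Prox1 was at 1.25 to 2.53 CPM in GLUT1EC-/- and 2.27 to 2.88 CPM in WT. Of 4 lymphatic markers tested, 0 passed in edgeR and in limma-voom and 1 (Lyve1) in DESeq2, which called 5.92% of all genes. An unadjusted p under 0.05 was found for 1, against 14.5% of all genes. Lyve1, a hyaluronan receptor also found on perivascular macrophages, was at 6.03, 8.57 and 5.71 CPM in GLUT1EC-/- and 2.82, 3.62 and 2.78 CPM in WT (adjusted p = 0.0800 by edgeR). The summed level of the 6 lymphatic markers was 13.8 to 14.7 CPM in GLUT1EC-/- and 9.72 to 12.4 CPM in WT, and its part in the Flt4 values was not tested.

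Taken per kilobase of the longest coding transcript, Flt1 made up most of the signal of the 3 VEGF receptors in every library. Its share was 72.3%, 70.8% and 69.5% in GLUT1EC-/- 1 to 3 and 77.7%, 77.7% and 78.1% in WT 1 to 3. Flt4 held 8.70%, 10.2% and 8.78% in GLUT1EC-/- and 4.90%, 4.86% and 5.88% in WT. Kdr held 19.0%, 19.0% and 21.7% in GLUT1EC-/- and 17.4%, 17.5% and 16.0% in WT. The groups did not overlap for any of these 3 shares, which sum to a whole and so are not independent of each other. The CPM of Kdr itself overlapped between the groups (log2 fold change -0.05), and no such shares were computed for other gene sets.

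Pgf, the placental growth factor gene, was weakly expressed. It was at 14.0, 17.0 and 18.0 CPM in GLUT1EC-/- 1 to 3 and 12.1, 17.1 and 13.5 CPM in WT 1 to 3, from 536 to 664 counts in GLUT1EC-/- and 392 to 585 counts in WT. The groups overlapped, and the log2 fold change was 0.19 (SE 0.19, adjusted p = 0.673 by edgeR).

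Of the Tie receptors, Tek was lower in every GLUT1EC-/- library. It was at 776, 571 and 890.4 CPM in GLUT1EC-/- 1 to 3, against 980.4, 948 and 1001 CPM in WT 1 to 3. The WT libraries lay close together, and GLUT1EC-/- 2 was the lowest of all. The means were 746 ± 162 CPM in GLUT1EC-/- and 977 ± 26.7 CPM in WT, a log2 fold change of -0.39 (SE 0.18, adjusted p = 0.371 by edgeR), with a 95% interval of the fold of 0.576 to 1.01. The log2 fold change was -0.24 without GLUT1EC-/- 2 and -0.54 without GLUT1EC-/- 3. Libraries of the 200s differed by -0.31 (log2) and those of the 500s by -0.49, with -0.53 among the female libraries and -0.17 between the males.

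Tie1, the partner of Tie2, was at 923, 1011 and 1192 CPM in GLUT1EC-/- 1 to 3 and at 1095, 1101 and 1069 CPM in WT 1 to 3. The GLUT1EC-/- values lay on both sides of the WT values. Its log2 fold change was -0.06 (SE 0.14, adjusted p = 0.865 by edgeR), with a 95% interval on the log2 scale of -0.39 to 0.26. Ptprb, the phosphatase of both receptor systems, was at 2397, 2308 and 2457 CPM in GLUT1EC-/- and 2277, 2433 and 1854 CPM in WT. The groups overlapped (log2 fold change 0.13, SE 0.15, adjusted p = 0.730 by edgeR), with a 95% interval on the log2 scale of -0.21 to 0.47.

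Angpt2 showed the largest fitted difference among the 9 genes and, in GLUT1EC-/-, the widest spread relative to its mean. It was at 72.4, 130.1 and 31.6 CPM in GLUT1EC-/- 1 to 3, against 22.6, 25.1 and 24.9 CPM in WT 1 to 3. Each GLUT1EC-/- library was above the WT range, GLUT1EC-/- 3 by the least. The means were 78.1 ± 49.5 CPM in GLUT1EC-/- and 24.2 ± 1.41 CPM in WT, a log2 fold change of 1.69 (SE 0.43, adjusted p = 0.118 by edgeR), or a fold of 3.22 (95% interval 1.64 to 6.35). DESeq2 gave an adjusted p of 0.00160, and edgeR without GLUT1EC-/- 3 gave one of 0.0130, in a fit that called 1.88% of all genes. Over all alternatives the adjusted p ranged from 0.00160 to 0.457. Without GLUT1EC-/- 2 the log2 fold change was 1.10 (adjusted p = 0.106 by edgeR). Within the 200s the groups differed by 1.60 (log2), and within the 500s by 1.36. Among the female libraries (2 GLUT1EC-/-, 2 WT) it was 2.03, and between the males (1 each) it was 0.34, a gap that was not tested.

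The highest and lowest GLUT1EC-/- libraries differed 4.11-fold in Angpt2, and the WT libraries 1.11-fold. The SD of log2 CPM was 1.02 within GLUT1EC-/- and 0.09 within WT, against medians of 0.30 and 0.16 over all genes tested, and 5.88% of tested genes had a larger SD within GLUT1EC-/-. Across GLUT1EC-/- 1 to 3 the summed endothelial reference genes were at 10916, 14188 and 11068 CPM, and the 11 pericyte markers at 1312, 1663 and 1365 CPM. The 13 microglia markers summed to 1144, 817 and 1824 CPM in the same libraries, and the 10 fibroblast markers to 501, 372 and 684 CPM. GLUT1EC-/- 2, highest in Angpt2, was thus highest in the first pair of sums and lowest in the second. The 7 venous markers summed to 8000 CPM, 9660 CPM and 7747 CPM in GLUT1EC-/- 1 to 3. The myelin gene Mal was at 1158, 2901 and 924 CPM, and both followed the order of Angpt2. The capillary sum ran in the reverse order, at 7140, 5375 and 7530 CPM, as did the microglia, fibroblast and lymphatic sums. The arterial (2104, 2518 and 2363 CPM) and smooth muscle sums (2284, 2559 and 3014 CPM) followed neither order. Nor did the endothelial reference, pericyte, astrocyte and neuron sums. Of 9 oligodendrocyte markers, Mal alone was higher by value in GLUT1EC-/-, and 8 were lower. The part of these sums and of Mal in the Angpt2 values was not tested.

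Angpt1, the Tie2 agonist, was scarce in these cells. It was at 15.2, 10.5 and 17.7 CPM in GLUT1EC-/- 1 to 3 and 14.0, 16.8 and 13.2 CPM in WT 1 to 3, from 350 to 655 counts in GLUT1EC-/- and 451 to 574 counts in WT. The GLUT1EC-/- values enclosed all WT values (log2 fold change -0.02, SE 0.22, adjusted p = 0.976 by edgeR), and the 95% interval of the fold was 0.697 to 1.40. Pericytes and smooth muscle cells are known sources of this ligand. Of 11 pericyte markers, 0 passed in edgeR, limma-voom or DESeq2 and 3 had an unadjusted p under 0.05 (14.5% of all genes did). Their summed level was 1312 to 1663 CPM in GLUT1EC-/- and 1167 to 1376 CPM in WT. Of 8 smooth muscle markers, 0 passed with any of these tools and 0 had an unadjusted p under 0.05, with summed levels of 2284 to 3014 CPM in GLUT1EC-/- and 2376 to 3075 CPM in WT. Without GLUT1EC-/- 2, edgeR called 1 smooth muscle marker, Cnn1, named after its value was seen, in a fit that called 5.73% of all genes.

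**Figure D2:**
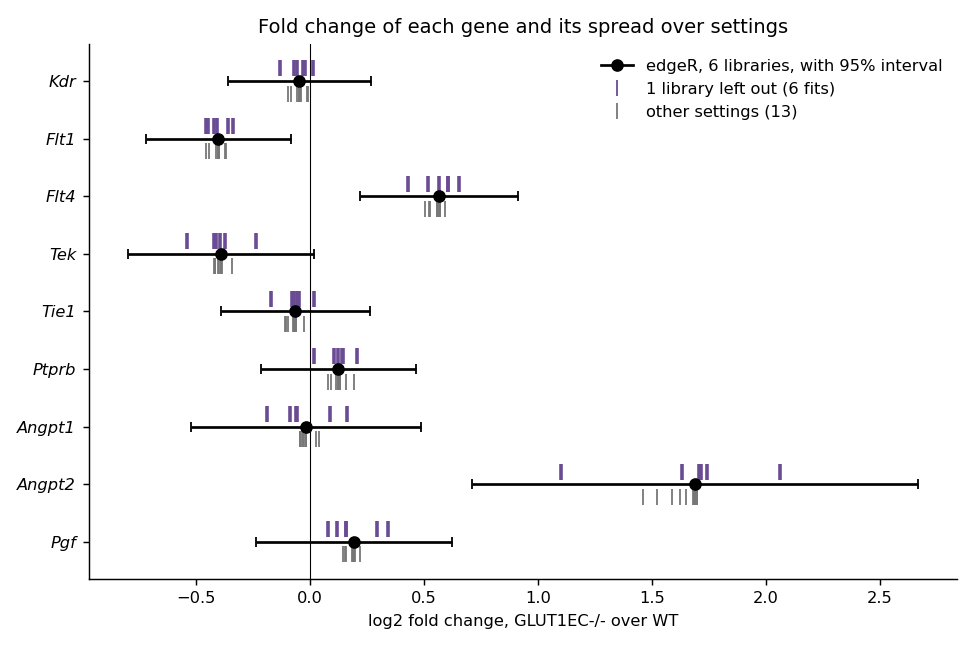
Log2 fold change of each gene, GLUT1EC-/- over WT, from edgeR on all 6 libraries (black points with 95% intervals), after leaving out 1 library (purple ticks, 6 fits) and under the other 13 settings (grey ticks). Flt1 stayed between -0.45 and -0.34 and Flt4 between 0.43 and 0.65, while Angpt2 ranged from 1.10 to 2.06.

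Levels can be compared between genes only per length, here as CPM per kilobase of the longest coding transcript. In GLUT1EC-/- the order was Flt1 (479 ± 39.2), Tie1 (246 ± 32.4), Ptprb (200.5 ± 6.33), Tek (160.3 ± 34.8), Kdr (134 ± 4.19), Flt4 (62.5 ± 9.78), Angpt2 (21.9 ± 13.9), Pgf (7.84 ± 0.996) and Angpt1 (3.40 ± 0.87). Within GLUT1EC-/- only the neighbours Tek and Kdr overlapped between libraries. In WT the order was Flt1 (632 ± 42.4), Tie1 (257 ± 3.95), Tek (209.9 ± 5.73), Ptprb (184 ± 25.2), Kdr (138 ± 15.1), Flt4 (42.2 ± 2.59), Pgf (6.85 ± 1.23), Angpt2 (6.80 ± 0.40) and Angpt1 (3.44 ± 0.44). Within WT the neighbours Tek and Ptprb overlapped, as did Pgf and Angpt2. Tek thus stood below Ptprb by mean in GLUT1EC-/- and above it in WT, and Angpt2 stood above Pgf in every GLUT1EC-/- library.

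**Figure D3:**
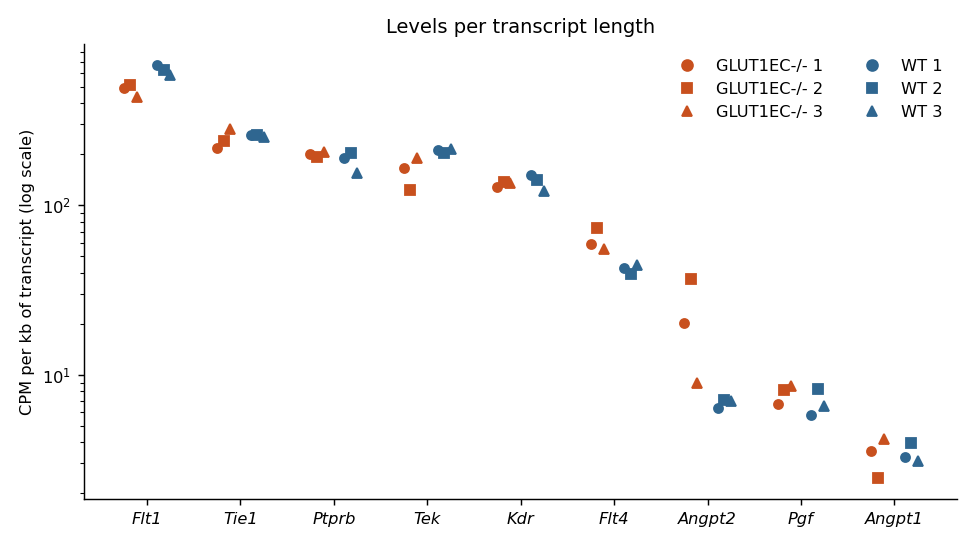
CPM per kilobase of the longest coding transcript on a log axis, for each library of GLUT1EC-/- (orange) and WT (blue), genes in the order of their GLUT1EC-/- mean. Flt1 is the highest and Angpt1 the lowest by mean in both groups, with 479 and 3.40 in GLUT1EC-/- and 632 and 3.44 in WT.

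Ratios of 2 genes within a library need no scaling between libraries, and 5 were compared by an exact two-sided permutation test over samples. With 3 against 3 libraries the smallest p this test can give is 0.1, so none could pass 0.05, and the pairs were chosen with the levels known. Some pairs share Kdr or Tek, so the ratios are not independent of each other, and no share over other gene pairs was computed. There were 4.44, 4.35 and 3.73 Flt1 counts per Kdr count in GLUT1EC-/- 1 to 3, against 5.21, 5.18 and 5.67 in WT 1 to 3. The groups did not overlap, and the mean log2 ratio differed by -0.36 (exact p = 0.1, adjusted over 5 ratios 0.125). The log2 ratio of Flt4 over Kdr was -1.03 ± 0.21 in GLUT1EC-/- and -1.63 ± 0.22 in WT, a difference of 0.60 without overlap (exact p = 0.1).

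The log2 ratio of Tie1 over Tek was 0.25, 0.82 and 0.42 in GLUT1EC-/- 1 to 3 and 0.16, 0.22 and 0.09 in WT 1 to 3. Its groups did not overlap and differed by 0.34 (exact p = 0.1), or by 0.18 without GLUT1EC-/- 2. Ptprb over Tek differed by 0.55, without overlap (exact p = 0.1). Angpt2 counts per Angpt1 count numbered 4.76, 12.4 and 1.78 in GLUT1EC-/- 1 to 3, against 1.62, 1.498 and 1.88 in WT 1 to 3. GLUT1EC-/- 3 lay within the WT range, and the difference in mean log2 ratio of 1.51 had an exact p of 0.2. Without GLUT1EC-/- 2 it was 0.81, and without GLUT1EC-/- 3 it was 2.21.

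**Figure D4:**
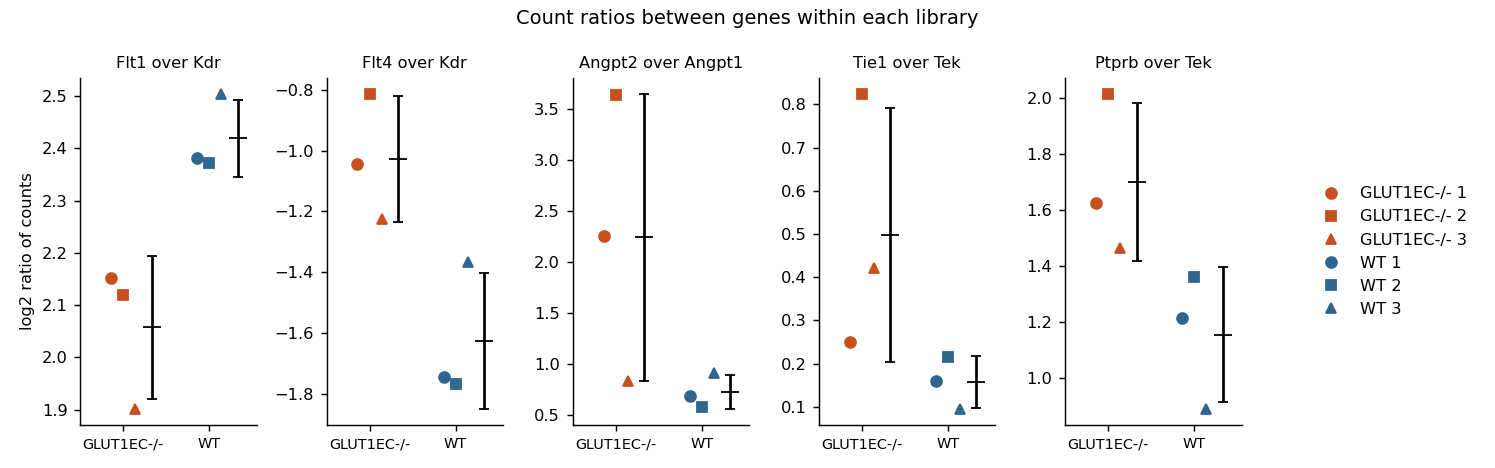
Log2 ratio of the counts of 2 genes in each library, GLUT1EC-/- left and WT right, with mean ± SD as black bars (axes do not start at 0). The groups do not overlap for 4 of the 5 ratios, and for Angpt2 over Angpt1 GLUT1EC-/- 3 lies within the WT range. Each of these 4 ratios holds Flt1, Flt4 or Tek, whose own levels did not overlap, and no share over other gene pairs was computed.

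Of the other VEGF ligands and co-receptors, 5 were tested, Vegfb, Vegfc, Figf, Nrp1 and Nrp2, and Vegfa (VEGF-A) was not in the list. All 5 were lower by value in GLUT1EC-/-, as were 7191 of 14838 genes tested, and none passed in edgeR or limma-voom. DESeq2 called 1 (Vegfc), against 5.92% of all genes, and 2 had an unadjusted p under 0.05, against 14.5%. The median log2 fold change was -0.59, against 0.01 over all genes tested. Vegfc, the ligand of VEGFR3, was at 41.5, 30.7 and 47.3 CPM in GLUT1EC-/- 1 to 3 and 71.8, 77.5 and 54.1 CPM in WT 1 to 3. Its groups did not overlap (log2 fold change -0.77, SE 0.20, adjusted p = 0.129 by edgeR), and 11.2% of all genes were lower without overlap. Vegfc is also counted in the arterial list. The co-receptor Nrp2 had a log2 fold change of -0.43 (adjusted p = 0.226 by edgeR). The co-receptor Nrp1, at 219.9, 82.1 and 247 CPM in GLUT1EC-/- and 316, 289 and 262 CPM in WT, had one of -0.66 (adjusted p = 0.448 by edgeR), and -0.31 without GLUT1EC-/- 2. Figf, an older symbol of the VEGF-D gene, had one of -0.59 (adjusted p = 0.395 by edgeR), and Vegfb one of -0.19 (adjusted p = 0.706 by edgeR).

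VEGF receptor signalling genes gave 0 of 31 calls in edgeR and in limma-voom and 2 in DESeq2, which called 5.92% of all genes. At an unadjusted p under 0.05 stood 5, against 14.5% of all genes. The median log2 fold change was 0.09. Src, a kinase that relays VEGFR2 signals to junctions, was at 33.8, 58.8 and 32.3 CPM in GLUT1EC-/- and 18.6, 22.6 and 20.3 CPM in WT (log2 fold change 1.02, adjusted p = 0.0940 by edgeR). Hspb1, a small heat shock protein phosphorylated downstream of p38, was at 284, 346 and 304 CPM in GLUT1EC-/- and 529.8, 436 and 462 CPM in WT (log2 fold change -0.61, adjusted p = 0.0933 by edgeR). Both were called by DESeq2. Ptprj, a phosphatase that acts on VEGFR2, had a log2 fold change of 0.58 (adjusted p = 0.240 by edgeR). The abundant members Nos3, the endothelial nitric oxide synthase, and Rac1, a small GTPase, differed by 0.09 and 0.16 on the log2 scale (adjusted p = 0.798 and 0.648 by edgeR), and both share exon positions with genes on the opposite strand.

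Transcripts known to be induced by VEGF gave 0 of 14 calls in edgeR with TMM scaling and in limma-voom, and 3 in DESeq2 (5.92% of all genes). At an unadjusted p under 0.05 stood 4, against 14.5% of all genes. The median log2 fold change was -0.12, and 4 members were higher and 10 lower by value. Egr3, an early response factor, was at 84.4, 101 and 76.0 CPM in GLUT1EC-/- and 130.2, 136 and 129 CPM in WT (log2 fold change -0.60, adjusted p = 0.0940 by edgeR). It passed in edgeR with upper-quartile scaling (adjusted p = 0.0498) and with library size alone (adjusted p = 0.0435). Going the other way were Apln, the apelin peptide gene, with a log2 fold change of 1.17 (adjusted p = 0.170 by edgeR), and F3, tissue factor, with 0.86 (adjusted p = 0.0973 by edgeR), both at means below 10 CPM in each group. The abundant Nr4a1, an early response nuclear receptor, and Cd34, an endothelial surface mucin, were at -0.28 and -0.06 by the same measure (adjusted p = 0.449 and 0.888 by edgeR).

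Tie receptor signalling genes had 0 of 14 calls in edgeR and in limma-voom and 2 in DESeq2, against 5.92% of all genes. At an unadjusted p under 0.05 stood 4, against 14.5% of all genes, and the median log2 fold change was 0.04. This list shares Nos3, Akt1 and Pik3r1 with the VEGF signalling list. Itga5, the fibronectin receptor chain that can bind Tie2, was at 147, 151 and 156 CPM in GLUT1EC-/- and 103, 101 and 89.3 CPM in WT (log2 fold change 0.63, SE 0.12, adjusted p = 0.0525 by edgeR). Its partner Itgb1 had a log2 fold change of 0.31 (adjusted p = 0.307 by edgeR). Grb14, an adaptor that binds Tie2, had one of -0.76 (adjusted p = 0.122 by edgeR). Foxo1, the transcription factor that Tie2 signalling holds in check and that drives Angpt2, was at 134, 135 and 126 CPM in GLUT1EC-/- and 162, 161 and 167 CPM in WT (log2 fold change -0.31, adjusted p = 0.261 by edgeR). Without GLUT1EC-/- 2, edgeR called 5.73% of all genes. In that fit it called 2 of 31 VEGF signalling genes, 4 of 14 VEGF-induced transcripts, 1 of 14 Tie signalling genes and 0 of the 9 receptor and ligand genes.

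**Figure D5:**
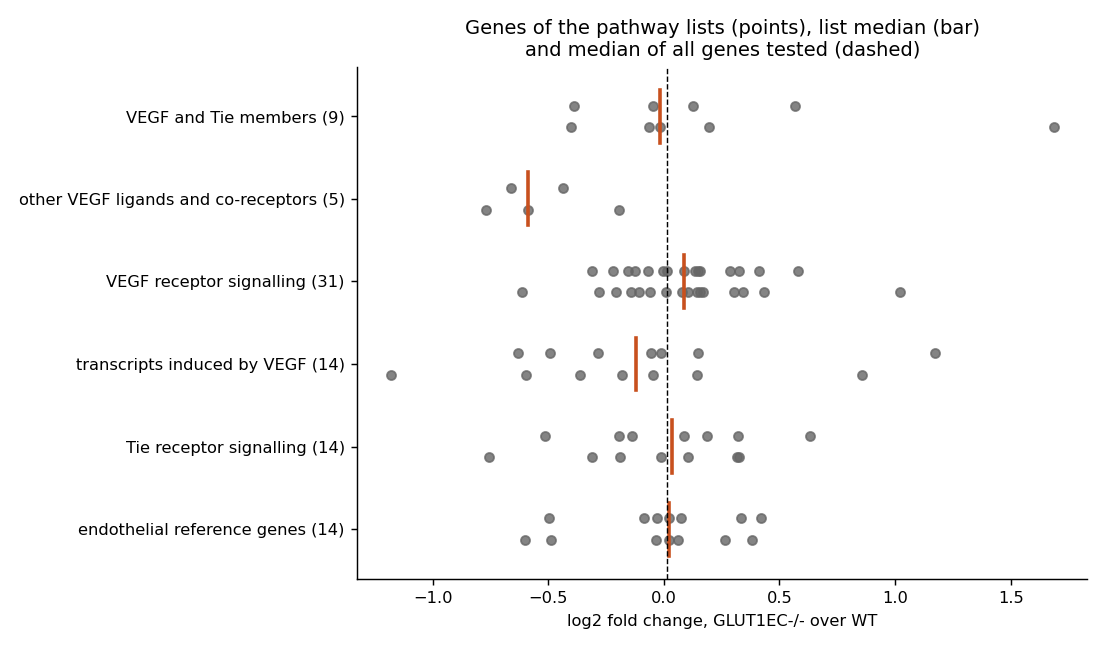
Log2 fold change, GLUT1EC-/- over WT, of each tested gene (points) in the receptor and ligand set, the 4 pathway lists and the endothelial reference genes, with list medians as bars and the median of all genes as a dashed line. The other VEGF ligands and co-receptors (Vegfb, Vegfc, Figf, Nrp1 and Nrp2) have a median of -0.59, and the other medians lie between -0.12 and 0.09.

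Markers of vessel segments and of other cells moved between the groups to different degrees, and their part in the receptor and ligand values was not tested. Of 11 arterial markers, edgeR called 2 higher (0.863% of all genes) and 2 lower (0.445%) in GLUT1EC-/-. By value 7 arterial markers were higher and 4 lower. The arterial sum was 2104 to 2518 CPM in GLUT1EC-/- and 1872 to 2303 CPM in WT. Mgp and Fbln5, matrix genes of arteries, rose by 1.40 and 1.33 log2 units (adjusted p = 0.0207 and 0.0407 by edgeR). Gkn3, a brain arterial marker, and Alpl, an arterial and capillary phosphatase, fell by 3.59 and 2.07 (adjusted p = 0.0269 and 0.0164 by edgeR). Sema3g, also abundant among them, had a log2 fold change of 0.29 (adjusted p = 0.416 by edgeR). By value 5 of 7 venous markers were higher and 2 lower, and edgeR called 1 of them, Vwf (log2 fold change 1.11, adjusted p = 0.0372 by edgeR). Icam1 had a log2 fold change of 0.07. The venous sum was 7747 to 9660 CPM in GLUT1EC-/- and 4472 to 6446 CPM in WT. Capillary markers had 0 of 7 called in edgeR, limma-voom and DESeq2, with 1 at an unadjusted p under 0.05 (14.5% of all genes). That gene, Spock2, was at 2812, 2259 and 3441 CPM in GLUT1EC-/- and 4553, 3819 and 3883 CPM in WT (adjusted p = 0.238 by edgeR), and Slco1c1, a thyroid hormone carrier, had a log2 fold change of -0.30 (adjusted p = 0.459 by edgeR). The capillary sum was 5375 to 7530 CPM in GLUT1EC-/- and 7566 to 9107 CPM in WT.

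Of all genes tested, edgeR called 1.31% and DESeq2 5.92%, and 14.5% had an unadjusted p under 0.05. By value 7647 of 14838 genes were higher in GLUT1EC-/- and 7191 lower. Microglia markers had 3 of 13 called higher in edgeR, the complement genes C1qb and C1qc and the receptor gene Trem2 (log2 fold changes of 1.49, 1.73 and 1.45). By value 11 were higher and 2 lower (median log2 fold change 1.06), 8 had an unadjusted p under 0.05 and DESeq2 called 5. Their sums were 817 to 1824 CPM in GLUT1EC-/- and 553 to 654 CPM in WT. Fibroblast markers had 1 of 10 called higher in edgeR, the matrix gene Dcn (log2 fold change 2.03). By value 9 were higher and 1 lower (median log2 fold change 0.85), 7 had an unadjusted p under 0.05 and DESeq2 called 4. The fibroblast sums were 372 to 684 CPM in GLUT1EC-/- and 380.1 to 529.7 CPM in WT. Astrocyte markers were split, with 5 of 10 higher and 5 lower by value. The filament gene Gfap rose (log2 fold change 2.97) and no other passed in edgeR, while DESeq2 also called the transcription factor gene Sox9, lower in GLUT1EC-/- (log2 fold change -0.55, adjusted p = 0.0800 by edgeR). The groups did not overlap for 2 higher and 4 lower astrocyte markers, against 11.7% and 11.2% of all genes. The astrocyte sums were 167 to 196 CPM in GLUT1EC-/- and 145 to 167 CPM in WT. Of 9 oligodendrocyte markers, 1 was higher by value in GLUT1EC-/- and 8 were lower, with a median log2 fold change of -0.33. The higher one, Mal, a myelin membrane gene, was at 924 to 2901 CPM in GLUT1EC-/- and 356 to 405 CPM in WT. Its log2 fold change was 2.10 (adjusted p = 0.0505 by edgeR). Neuron markers had 0 of 9 called in edgeR, limma-voom and DESeq2, 3 at an unadjusted p under 0.05, and sums of 88.3 to 143 CPM in GLUT1EC-/- and 113 to 125 CPM in WT. No marker of these lists was at 0 in all libraries. Without GLUT1EC-/- 2, edgeR called 9 of 13 microglia, 3 of 10 fibroblast, 3 of 10 astrocyte and 6 of 11 arterial markers. That fit, which called 5.73% of all genes, also called Lyve1 among the lymphatic markers, and Mal. Without WT 1 no gene passed in edgeR, so each marker call of the edgeR fit to all 6 libraries was lost. Over all genes 1 passed without WT 2 and 5 without WT 3. The geometric mean of the 14 endothelial reference genes was also used as the scale in place of TMM. The log2 fold changes were then -0.37 for Flt1, 0.59 for Flt4, -0.34 for Tek and 1.68 for Angpt2. None of these passed (adjusted p = 0.234, 0.0702, 0.496 and 0.103 by edgeR). Under TMM the reference genes themselves ranged from -0.60 to 0.42 in log2 fold change. Of the 14, 0 passed in edgeR, 4 had an unadjusted p under 0.05 (14.5% of all genes did) and DESeq2 called 1.

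The genes most like Kdr, Tek and Angpt2 were taken as those with the smallest root mean square difference of centred log2 CPM over the 6 libraries, among 8848 genes of at least 10 CPM on average. Rnf11 and Plekha1 were among the closest to Kdr, at 0.021 and 0.033, where the median gene was at 0.227. Kdr itself varied by only 0.099 about its own mean, by the same measure. Zmym6, Pla2g16 and Cep68 lay closest to Tek, at 0.030, 0.039 and 0.041, where the median gene was at 0.359 and Tek varied by 0.281. Kbtbd11, Csf2rb2 and Galntl2 lay closest to Angpt2, at 0.109, 0.167 and 0.184, where the median gene was at 0.929. Kbtbd11 was at 249, 415 and 126 CPM in GLUT1EC-/- 1 to 3 and 72.8, 81.7 and 88.3 CPM in WT 1 to 3, with GLUT1EC-/- 2 highest and GLUT1EC-/- 3 lowest of its group, as for Angpt2. These genes were picked for likeness over the same 6 libraries, so the shared order follows from the choice. The likenesses are descriptions, with no test.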

How the data were processed

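RNA was measured in 3 GLUT1EC-/- and 3 WT libraries. The authors used STAR, featureCounts and the GRCm38 build, per the submitters' processing notes. Versions, annotation, strand setting and filters are not given in the sources used here. Values were deposited as raw counts per gene symbol, 1 file per library. Per the labels' protocols, libraries were stranded mRNA libraries read as single-end reads of 100 bp.

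Genotype alone was fitted to all 6 libraries with edgeR 4.0.16 (R 4.3.3): TMM scaling, filterByExpr (minimum count 10, minimum total 15), robust quasi-likelihood F test, Benjamini-Hochberg adjustment over 14838 genes, threshold 0.05. The SE of a log2 fold change was its size over the root of F. Each library has its own number in its title, taken as its animal, so p-values measure the spread between 3 such samples per group. Intervals assume that spread, and reads here carry no molecular identifiers, so counts may hold PCR copies. Lengths and positions come from GENCODE M21. The fit was tested on simulated data.

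The 9 genes, the lists and the ratios were chosen with earlier results of these data known. Named genes are the 9, from each of 4 pathway lists the called genes, the 3 smallest p-values and the 2 most abundant, from each cell type list the called genes and the 2 most abundant (not all of the abundant ones are printed), and 3 genes most like each of Kdr, Tek and Angpt2. Hlx, Cnn1, Prox1 and Vegfb fall outside this rule and were named after their values were seen. Some results that the rule would name, 1 of them bearing on the oligodendrocyte list, are not reported here. Of the listed symbols, Vegfd (present as Figf), Ackr1 and Rgcc were not matched, and Ccl21a, Reln and Gad2 were below the filter. Alternatives were other scalings, DESeq2 1.42.0, limma-voom (limma 3.58.1), other filters and thresholds, the title number series or the sex read from Xist and Ddx3y as a term, and each library left out.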

Additional observations from a re-analysis of the deposited data

How the results depend on the processing

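Of the 9 genes, 0 were called under 17 of 19 alternatives. DESeq2 called 2 (Angpt2 and Flt4) and edgeR without GLUT1EC-/- 3 called 1 (Angpt2), so leaving out libraries gave 0 to 1. Over all genes tested, 194 were called, and 879 with DESeq2, 14 with the title number series as a term, 113 with sex as a term, 429 at an adjusted p of 0.1 and 119 with glmTreat at a fold of 1.2. Leaving out 1 library gave 0 to 862, where the WT libraries 1, 2 and 3 left 0, 1 and 5 calls when dropped, and the libraries GLUT1EC-/- 1, 2 and 3 left 32, 862 and 283. Single libraries moved the VEGF signalling list between 0 and 2 calls, the VEGF-induced list between 0 and 4 (Apln, Egr3, F3 and Hlx) and the Tie signalling list between 0 and 1, each highest without GLUT1EC-/- 2, and the list of other VEGF ligands stayed at 0. The cause of these moves was not tested. Egr3 of the VEGF-induced list also passed in edgeR with upper-quartile scaling and with library size alone, and list calls were not counted under these scalings. Among the 9 genes, values that passed nowhere changed sign for Kdr without WT 1 (0.02), for Tie1 without GLUT1EC-/- 1 (0.02) and for Angpt1 under 4 alternatives. The median of all genes moved by less than 0.1 (log2) under every scaling. Adding 1 count to both genes left the 5 ratios unchanged to 2 decimals, and leaving out 1 library gave differences of -0.41 to -0.28 for Flt1 over Kdr, 0.49 to 0.73 for Flt4 over Kdr, 0.81 to 2.21 for Angpt2 over Angpt1, 0.18 to 0.47 for Tie1 over Tek and 0.39 to 0.67 for Ptprb over Tek. Angpt1 and Pgf rest on 350 to 664 counts per library, which limits their precision. No paired analysis was possible because the labels match no single GLUT1EC-/- library to a single WT library. The title number series, which both groups share, could be fitted as a term, and with it 0 of the 9 genes were called.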
